A study of Mus musculus with 10 samples.

Results

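Liver RNA of mice at the end of refeeding was compared with that of mice at the low point of the same weekly cycle of calorie restriction. The comparison takes the 3 libraries titled as day 7 of the cycle (RF) against the 4 titled as day 3 (LC), 7 of the 10 libraries of the series, chosen by their titles alone. Both groups were fed a high-fat diet and followed the same cycle. Calories were cut by 50% on day 1 and day 4 and by 70% on day 2 and day 3 of each week, and feeding was free from day 5 to day 7. LC libraries were therefore taken on the second day at 70% restriction, and RF libraries on the last free feeding day. The 3 remaining libraries came from mice on the same diet with free access to food throughout (AL), and their levels are given only as a reference, with no test. All 10 libraries are from whole liver. The sources used here do not give the strain, sex, age, number of cycles completed, or hour and feeding state at collection, so a change with the day of the cycle and one with the hour of collection cannot be told apart.

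The liver switches between making fuel and burning it. In the fed state, insulin acts through the transcription factor SREBP-1c, and glucose through ChREBP, to raise the enzymes that turn sugar into fatty acids, while amino acids from the diet feed protein synthesis, secretion and the urea cycle. In fasting, the receptor PPARA raises fatty acid oxidation and ketone synthesis, and the transcription factor ATF4 responds to scarce amino acids. The question here was how far transcript levels differed between livers taken on these 2 days of the weekly cycle. The sources do not say whether both groups were taken in the same week.

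Library totals were 13871533 to 15801532 expected counts at LC and 14601704 to 15502191 at RF. Levels are given as CPM, counts divided by a library total that was adjusted with TMM factors (trimmed means of log ratios between libraries). A principal component analysis of log2 CPM put 40.3% of the variance on its first axis, where LC libraries scored 28.1 to 45.8, RF libraries −25.8 to −16.5 and AL libraries −39 to −11.3. Correlations of libraries over genes (Pearson's r, genes not being independent) were 0.971 to 0.981 inside LC, 0.976 to 0.982 inside RF and 0.946 to 0.966 for pairs of LC and RF. The tissue label fits the markers: 15 hepatocyte genes summed to 82328 to 92398 CPM at LC and 108172 to 116392 CPM at RF, and 6 T and NK cell genes to 6.03 to 8.67 and 6.06 to 8.96 CPM. Whether each sample is a separate animal is not stated in the labels, and every p-value below therefore reflects only the spread among these samples, which may be technical.

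Of 12789 genes tested, 2821 (22.1%) were called different between RF and LC by edgeR's quasi-likelihood test at a Benjamini-Hochberg adjusted p below 0.05. At RF 1452 (11.4%) were higher and 1369 (10.7%) lower, 285 and 249 of them by at least 2-fold and 43 and 36 by at least 4-fold. The median log2 fold change (RF minus LC) was 0.66 among genes called higher and −0.69 among genes called lower, with a median standard error of 0.18 over all genes. In 4367 genes (34.1%) the 3 RF values and the 4 LC values did not overlap, and 144 of the called genes had values that did. The split between directions rested on the scaling: with library totals and no further scaling, 673 genes were higher and 2724 lower (19.8% of calls higher, against 51.5%), and the median of all genes was −0.22 in place of −0.02. Leaving out any single LC or RF library lowered both counts. Without RF replicate 1, 1003 genes were higher and 914 lower, without RF replicate 2, 792 and 643, and without RF replicate 3, 874 and 768. Without LC replicate 1 the counts were 1064 and 966. Leaving out a library also leaves fewer samples for the test, and this cannot be told apart from the weight of that library.

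**Figure D1:**
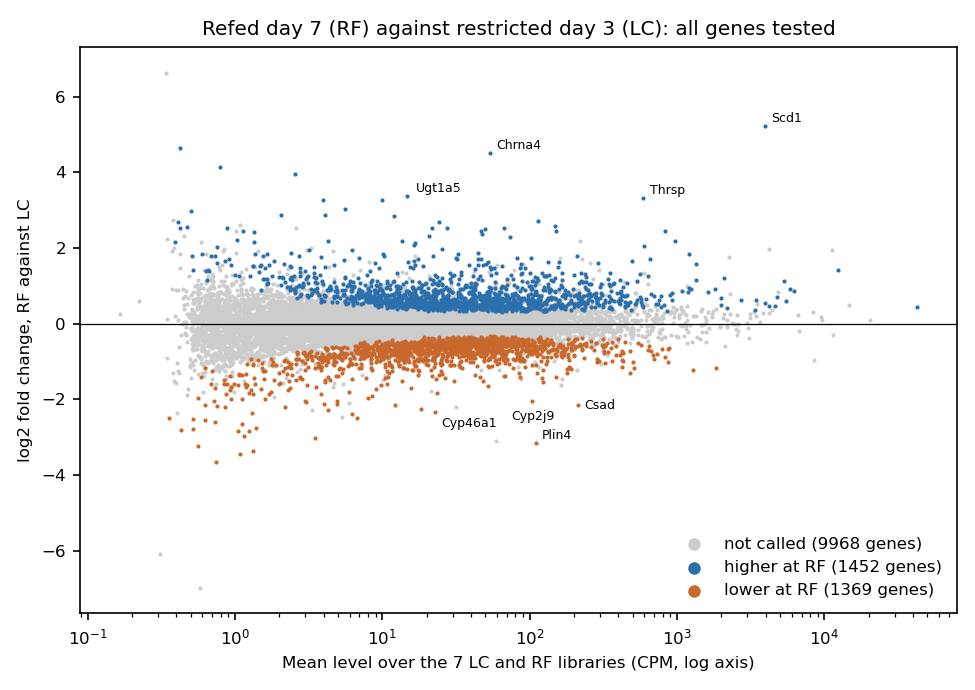
Log2 fold change of RF against LC (vertical axis) by mean level over the 7 libraries in CPM (horizontal log axis), one point per gene tested. Blue marks the 1452 genes higher and orange the 1369 genes lower at RF, with Scd1 at 5.22 the highest of the named genes and Plin4 at −3.16 the lowest.

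Enzymes that make and desaturate fatty acids moved furthest. Of the 22 genes of this list 18 were higher at RF and none lower (81.8% called, against 22.1% of all genes tested, and 11.4% higher), with a median log2 fold change of 1.61 beside −0.02 over all genes. Scd1, the stearoyl-CoA desaturase that puts the double bond into saturated fatty acids, was at 136, 379, 266 and 170.5 CPM in LC replicates 1 to 4. In RF replicates 1 to 3 it was at 10268, 11299.7 and 5018 CPM, so that the lowest RF library stood far above the highest LC library. The means were 238 ± 109 CPM (SD, n = 4) and 8862 ± 3369 CPM (n = 3), a 37.3-fold difference (log2 5.22, SE 0.46, adjusted p = 0.00032), and the AL libraries lay at 3773 to 7266 CPM. Reads of Scd1 may be shared in part with other members of its family.

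The desaturases of polyunsaturated fatty acids rose with less spread. Fads1, the delta-5 desaturase, was at 225, 289, 247 and 252 CPM at LC and at 1095, 1158 and 887 CPM at RF (2.05, SE 0.19, adjusted p = 7.2e-05). Fads2, the delta-6 desaturase, was at 249, 309, 269 and 314 CPM against 1668, 1632 and 1356 CPM (2.44, SE 0.22, adjusted p = 7.2e-05). The related gene Fads3 was at 6.85, 10.5, 6.84 and 4.33 CPM against 44.7, 44.7 and 34.1 CPM (2.53, SE 0.22, adjusted p = 7.2e-05). In each of the 3 genes every RF library was above every LC library. In Fads1 and Fads2 the LC libraries differed from each other far less than from RF, while Fads3 at LC ran from 4.33 to 10.5 CPM. Among the elongases, which lengthen fatty acids, Elovl6 was at 27.4, 88.6, 29.9 and 41.5 CPM at LC and 227, 413 and 206 CPM at RF (2.59, SE 0.43, adjusted p = 0.0048), and Elovl2, which acts on polyunsaturated chains, rose by 1.12 (SE 0.16, adjusted p = 0.001). Hsd17b12, the ketoacyl reductase of the same elongation cycle, rose by 1.35 (adjusted p = 0.00065). Thrsp, a lipogenic regulator also known as Spot 14, was at 87, 236, 56 and 109.5 CPM at LC and 929, 1602 and 1107 CPM at RF (3.31, SE 0.45, adjusted p = 0.0021).

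The cytosolic steps that supply and build palmitate moved less and less evenly. Fasn, the fatty acid synthase, was at 527, 449, 218 and 347 CPM at LC and 901, 3416 and 972 CPM at RF (2.19, SE 0.50, adjusted p = 0.017). RF replicate 2 stood apart here, and without it the difference was 1.28 (adjusted p = 0.019). Acaca, the acetyl-CoA carboxylase of the committed step, was at 84.5, 109, 70.4 and 99.7 CPM against 129, 227 and 149.6 CPM (0.89, SE 0.19, adjusted p = 0.0072). Acly, which makes cytosolic acetyl-CoA from citrate, was at 159.5, 182, 118 and 85.7 CPM against 210.1, 821 and 209 CPM and was not called (1.60, SE 0.51, adjusted p = 0.057). All 3 RF values of Acly were above LC, but the difference was 0.62 without RF replicate 2, and it was called without RF replicate 1 (adjusted p = 0.041) or RF replicate 3 (0.044).

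**Figure D2:**
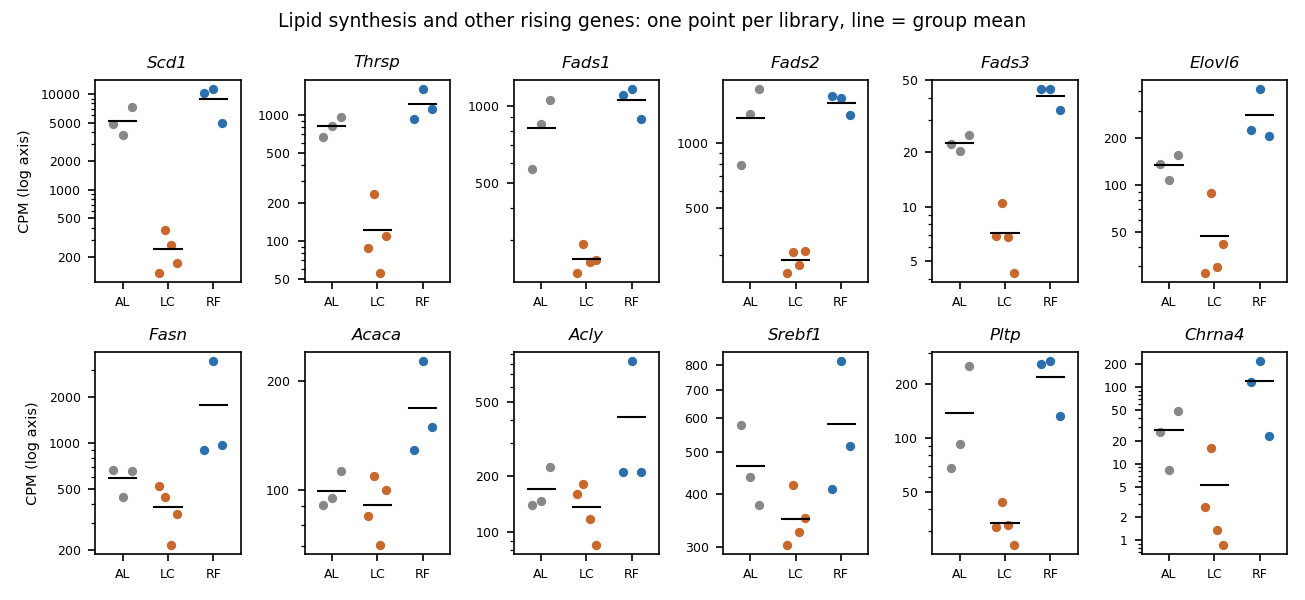
Level in CPM (vertical log axes) of 12 genes in each AL, LC and RF library, one point per library, with a line at the group mean. RF lies above LC without overlap in each gene but Srebf1, and in Fasn and Acly RF replicate 2, at 3416 and 821 CPM, stands apart from the other RF libraries.

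Regulators of these enzymes moved in both directions and over a narrower range than the enzymes (−0.67 to 1.47, against −0.08 to 5.22). Of 16 genes of that list 4 were higher and 3 lower (43.8% called, against 22.1% of all genes). The median, in which rises and falls offset each other, was 0.02. Library totals gave 3 higher and 6 lower with a median of −0.18. Insig1, which holds SREBP precursors in the endoplasmic reticulum and is itself an SREBP target, was higher, at 532, 705 and 543 CPM against 351, 324, 229.9 and 315 CPM (0.96, SE 0.17, adjusted p = 0.0023). Mlx, the dimer partner of ChREBP, rose by 0.59 (adjusted p = 0.0039), and Nr1h2, which encodes the oxysterol receptor LXR beta, fell by 0.60 (adjusted p = 0.0051). Srebf1, the gene of SREBP-1, was called (0.73, SE 0.22, adjusted p = 0.031) although the groups overlapped, at 304 to 420 CPM at LC and 411 to 815 CPM at RF. That call was lost without LC replicate 1 (adjusted p = 0.078), LC replicate 3 (0.069), LC replicate 4 (0.063) or RF replicate 2 (0.19, at 0.41), and with library totals (0.091). Mlxipl, the gene of ChREBP, was at 1003 to 1133 CPM at LC and 712 to 987 CPM at RF and was not called (−0.33, SE 0.17, adjusted p = 0.18). With library totals it was called lower (−0.53, adjusted p = 0.042). Without RF replicate 2 the list had 2 genes higher and 1 lower, and without LC replicate 1 or LC replicate 4 it had 2 higher.

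Cholesterol genes had a high median and wide spread. All 24 had a log2 fold change above 0 (0.03 to 1.74, median 1.07), but 7 passed the test. This share of 29.2% compares with 22.1% of all genes called either way and 11.4% called higher. The count was 4 without RF replicate 2 and 13 with DESeq2. Ebp, the sterol isomerase, was at 149.9, 168, 137 and 139 CPM at LC and 332, 338 and 305 CPM at RF (1.13, SE 0.14, adjusted p = 0.00043), and Sc5d, the lathosterol oxidase, rose by 1.31 (SE 0.22, adjusted p = 0.0022). Sqle, the squalene epoxidase, was at 10 to 59.9 CPM at LC and 51.9 to 128 CPM at RF (1.48, SE 0.68, adjusted p = 0.16).

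Storage of fat showed opposite movements within one list. Plin4, a coat protein of lipid droplets, was at 231, 122, 122 and 238 CPM at LC and 16.7, 17.3 and 25.8 CPM at RF, an 8.92-fold lower mean (−3.16, SE 0.37, adjusted p = 0.00095). AL libraries lay between, at 50 to 104 CPM. In the list of lipid droplet and lipolysis genes Plin4 was the one gene of 19 that was lower, and 6 were higher. Among those were Abhd5, the co-activator of the triglyceride lipase ATGL (0.80, SE 0.12, adjusted p = 0.00099), Cideb, which enlarges droplets and loads VLDL particles (1.06, SE 0.16, adjusted p = 0.0014), and Fitm1, which helps droplets form (0.86, SE 0.19, adjusted p = 0.0071). Without LC replicate 1, 3 genes of the list were lower, and library totals gave 4 higher and 3 lower. Of 13 genes of glycerolipid synthesis 2 were higher and none lower (15.4% called, against 22.1% of all genes). The acyltransferase gene Agpat2 led them (1.33, SE 0.17, adjusted p = 0.00051), and 1 gene was higher without LC replicate 3 or RF replicate 1 or 2. Cidec, a droplet protein gene, was at 3.58 to 17.5 CPM at LC and 7.54 to 16.2 CPM at RF (0.46, SE 0.49, adjusted p = 0.53), while AL libraries lay at 44.1 to 44.6 CPM. Without LC replicate 2 Cidec was called higher (1.07, adjusted p = 0.033).

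Pltp, the plasma phospholipid transfer protein gene, led the lipoprotein list, at 31.7, 43.8, 32.4 and 25.2 CPM at LC and 258, 268 and 133 CPM at RF (2.72, SE 0.46, adjusted p = 0.0053). Of 21 apolipoprotein and assembly genes 5 were higher and none lower (median 0.19). The share called was 23.8%, close to the 22.1% of all genes called either way, while 11.4% were called higher. With library totals 3 were higher and 2 lower, and without any single RF library 3 were higher.

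Genes of the fasting response showed little net movement. Of 22 genes of fatty acid oxidation and ketone synthesis 4 were higher and none lower (18.2% called, against 22.1% of all genes, median 0.27). Library totals gave 3 higher and 4 lower. Leaving out AL replicate 2 gave 7 higher. Eci1, an enoyl-CoA isomerase, rose by 0.75 (SE 0.16, adjusted p = 0.0056) and Bdh1, which interconverts the 2 main ketone bodies, by 0.76 (SE 0.17, adjusted p = 0.0074). Ppara itself was not called (0.13, SE 0.16, adjusted p = 0.58), and the same held for Cpt1a, which admits fatty acids to mitochondria (0.34, SE 0.18, adjusted p = 0.19). Cpt1a was called higher without LC replicate 2 (0.52, adjusted p = 0.03).

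PPARA targets known from fasting split by gene. Of 23 listed, 2 were higher and 4 lower (median −0.16), and 7 were lower with library totals. The fatty acid omega-hydroxylases Cyp4a14 and Cyp4a10 fell by 1.16 (SE 0.20, adjusted p = 0.0021) and 0.94 (SE 0.21, adjusted p = 0.0072), Cyp4a14 from 1954, 2552, 2355 and 2730.4 CPM to 873, 921 and 1419 CPM. These 2 genes have close copies, so reads may be shared. Fabp1, the liver fatty acid binding protein, moved the other way, from 4083, 4784, 5602 and 3819 CPM to 8755, 8225 and 8127 CPM (0.87, SE 0.14, adjusted p = 0.0018). Angptl4, a fasting-induced lipase inhibitor, was lower (−0.58, adjusted p = 0.019), and its call was lost without RF replicate 1 (0.091) or RF replicate 2 (0.073). Fgf21, the fasting hormone, was at 4.86 to 23.7 CPM at LC and 7.49 to 10.5 CPM at RF (−0.67, SE 0.46, adjusted p = 0.33) and was called without LC replicate 2 (−0.96, adjusted p = 0.033). Pdk4, which blocks pyruvate oxidation, was lowest in LC replicate 1 (78.4 CPM) and RF replicate 1 (115 CPM), and the 5 libraries left lay at 392 to 450.4 CPM (−0.16, SE 0.62, adjusted p = 0.88). The list had 5 genes higher without LC replicate 2 and 2 lower without RF replicate 2.

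The main glucose output genes did not pass the test, while some genes of sugar storage and use did. Pck1, the first dedicated enzyme of gluconeogenesis (0.05, SE 0.20, adjusted p = 0.88), and G6pc, the last (0.03, SE 0.23, adjusted p = 0.93), had overlapping values, Pck1 at 2992 to 4517 CPM at LC and 2707 to 4564 CPM at RF. Ppp1r3b, the subunit that brings protein phosphatase to glycogen, was at 67.3, 28.7, 40.8 and 52.6 CPM at LC and 167, 141 and 116 CPM at RF (1.58, SE 0.24, adjusted p = 0.0018). Pygl, the liver glycogen phosphorylase, rose by 0.72 (adjusted p = 0.0041), and Crtc2, a co-activator of gluconeogenic genes, fell by 0.97 (SE 0.17, adjusted p = 0.002). In all, 5 of 24 gluconeogenesis and glycogen genes were higher and 4 lower. The count higher was 3 without RF replicate 2, and the count lower was 2 without RF replicate 1.

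Of 26 genes of glycolysis and the pentose phosphate pathway 10 were higher and 3 lower (median 0.43). Pgam1 (0.90, SE 0.15, adjusted p = 0.0018), Gapdh (0.91, SE 0.16, adjusted p = 0.0025) and Eno1 (0.96, SE 0.19, adjusted p = 0.0045) act in lower glycolysis, and Pgd (0.92, SE 0.16, adjusted p = 0.0025) makes NADPH, which fatty acid synthesis consumes. Gapdh was at 1016, 987, 737 and 845 CPM at LC and 1659, 1857 and 1542 CPM at RF. Without RF replicate 2, 6 genes of the list were higher and none lower, and the count lower was 1 without LC replicate 1 or RF replicate 3. With library totals 6 were higher and 5 lower.

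The tricarboxylic acid cycle list had 15 of 25 genes higher and none lower (median 0.47). It also holds genes of cytosolic enzymes (Mdh1, Idh1 and Aco1) and of the pyruvate dehydrogenase complex (Pdha1, Pdhb, Dlat and Pdhx). Mdh1 and Mdh2, the cytosolic and mitochondrial malate dehydrogenases, rose by 1.06 (SE 0.18, adjusted p = 0.0021) and 0.79 (SE 0.14, adjusted p = 0.0027), Mdh1 from 201, 318, 246 and 235 CPM to 475, 551 and 538 CPM. Idh1, the cytosolic isocitrate dehydrogenase, rose by 0.60 (adjusted p = 0.0052) and Cs, the citrate synthase, by 0.64 (adjusted p = 0.0075). The count was 9 without LC replicate 1, 7 without RF replicate 2, 8 without RF replicate 3 and 6 with library totals. It was 9, with a median of 0.31, when trends on transcript length and GC content were removed. Respiratory chain genes had smaller differences: 13 of 50 were higher and 1 lower (28.0% called, against 22.1% of all genes, median 0.21). They were led by Uqcrc2 of complex III (0.68, SE 0.14, adjusted p = 0.005). With library totals 4 were higher and 9 lower, so no direction is given for that list. With length and GC trends removed 9 were higher and 3 lower (median 0.06), and leaving out an RF library gave 5 to 7 higher and none lower.

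Nitrogen disposal was among the clearest differences. Of 15 urea cycle and ammonia genes 9 were higher and 1 lower (66.7% called), with a median of 0.75. Ass1, the argininosuccinate synthase, was at 744, 972, 647 and 541 CPM at LC and 1997, 2495 and 2080.4 CPM at RF (1.59, SE 0.18, adjusted p = 0.00024). Oat, the ornithine aminotransferase, was at 676, 632, 437 and 536 CPM against 2229, 2228 and 1645 CPM (1.83, SE 0.22, adjusted p = 0.00044). Both were at least 2-fold higher in the mean and did not overlap, and AL means were 2407 CPM for Ass1 and 2141 CPM for Oat. Otc, the ornithine transcarbamylase, rose by 0.80 (SE 0.15, adjusted p = 0.0031), and Slc25a15, the mitochondrial ornithine carrier, by 0.76 (SE 0.14, adjusted p = 0.0033). With library totals 7 of the list were higher and 1 lower, and the 1 lower gene lost its call without LC replicate 1, 3 or 4 or any RF replicate.

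Amino acid breakdown followed, with 20 of 48 genes higher and 2 lower (median 0.32). Kynu, the kynureninase of tryptophan breakdown, was at 56.9, 62.3, 53.5 and 40.2 CPM at LC and 135, 137 and 125 CPM at RF (1.31, SE 0.14, adjusted p = 0.00015). Qdpr, which regenerates the cofactor tetrahydrobiopterin, rose by 1.17 (SE 0.14, adjusted p = 0.00039). Pcca, a subunit of propionyl-CoA carboxylase, rose by 1.25 (SE 0.17, adjusted p = 0.00068). Acmsd, which diverts tryptophan breakdown from NAD synthesis, was at 0.565 to 2.83 CPM at LC and 7.04 to 16.6 CPM at RF (3.02, SE 0.43, adjusted p = 0.0016). One of the 2 lower genes was Csad, an enzyme of taurine synthesis, at 499, 101, 343 and 331 CPM at LC and 58.1, 77.8 and 80.8 CPM at RF (−2.14, SE 0.46, adjusted p = 0.012). LC replicate 2 was the closest of the LC libraries to RF in Csad. With library totals the list had 15 higher and 6 lower. The count lower was 1 without LC replicate 1 or 4 or RF replicate 2 or 3, and 4 without LC replicate 3. Methionine and one-carbon genes had 9 of 25 higher and none lower, but the count was 0 without RF replicate 2 and 1 to 4 without RF replicate 1 or 3 or LC replicate 1, 3 or 4.

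**Figure D3:**
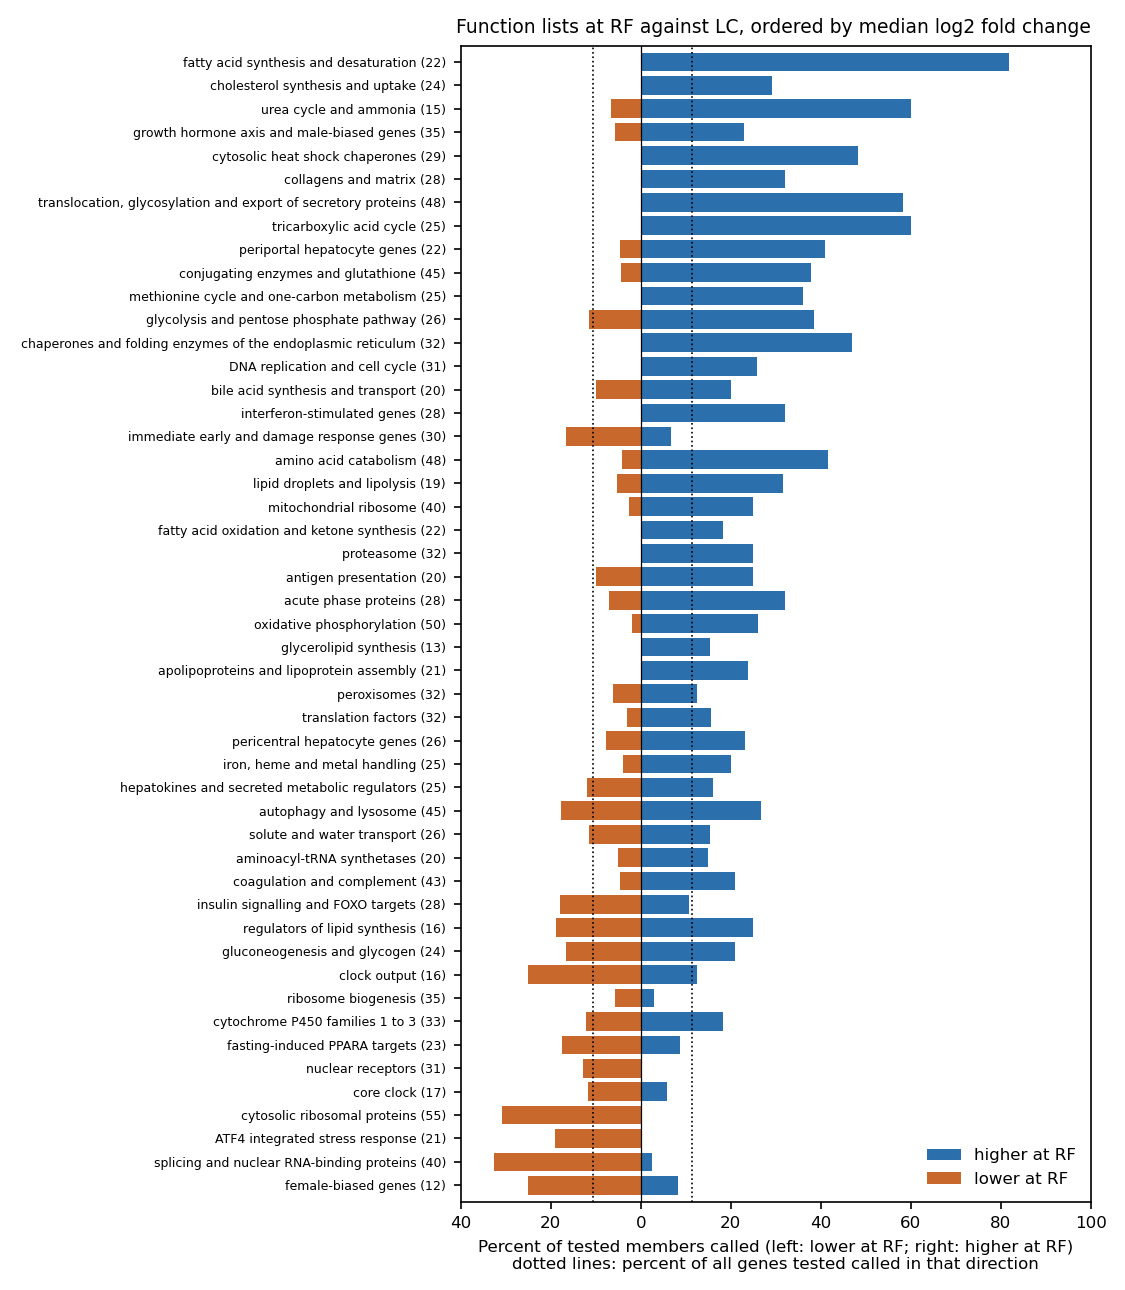
Percent of tested members called higher (right, blue) or lower (left, orange) at RF in each of 49 function lists, ordered by their median log2 fold change, with the number tested in brackets. Dotted lines mark the share of all genes tested called in that direction, 11.4% and 10.7%, and fatty acid synthesis (81.8%) extends furthest.

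The machinery that folds and ships secreted proteins was higher at RF. Of 48 genes of translocation, glycosylation and export 28 were higher and none lower (58.3% called, median 0.48), and 17 were higher and none lower with library totals. Sec13, a coat protein of export vesicles, was at 24, 28.4, 26.7 and 25.7 CPM at LC and 47.5, 56.5 and 51.4 CPM at RF (0.98, SE 0.13, adjusted p = 0.00051). Lman1, a cargo receptor for clotting factors, rose by 0.92 (SE 0.12, adjusted p = 0.00052). Ostc, a subunit of the oligosaccharyltransferase, rose by 1.16 (SE 0.15, adjusted p = 0.00056), and Spcs3, a subunit of the signal peptidase, by 0.86 (SE 0.12, adjusted p = 0.00068). In all 4 genes the groups did not overlap.

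Chaperones and folding enzymes of the endoplasmic reticulum had 15 of 32 genes higher and none lower (median 0.41). The disulphide isomerase Pdia4 was at 47.9, 45.6, 48.1 and 39.9 CPM at LC and 89.3, 89.5 and 131 CPM at RF (1.19, SE 0.16, adjusted p = 0.00065). Pdia6 (0.81, SE 0.12, adjusted p = 0.001) and Pdia3 (0.89, SE 0.15, adjusted p = 0.0021), of the same family, and the lectin chaperone Calr (0.79, SE 0.16, adjusted p = 0.005) were also higher. Hspa5, the gene of the chaperone BiP, was at 203, 269, 206 and 258 CPM at LC and 296, 500.1 and 668 CPM at RF (1.06, SE 0.26, adjusted p = 0.015). RF replicate 3 was the highest of the 3 in Hspa5, Pdia4, Pdia6, Pdia3 and Calr, and without it Hspa5 lost its call (0.76, adjusted p = 0.061) and the list had 8 higher. With library totals the list had 9 higher and 1 lower.

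Promoter sequences are shown for the chaperone list because 15 of its members were called in 1 direction and a regulatory element of such genes has been described. That element, the endoplasmic reticulum stress response element, was searched on both strands as CCAAT, 9 bases of any kind and CCACG, in windows from 250 bases before to 50 bases after the annotated start (RefSeq, GRCm38.p6). It was present in 8 of 31 windows (25.8%) of the 27 genes of the list that had one, and in 39 of 32851 windows of all genes (0.119%). Of the 8 genes with a match, Hspa5, Pdia6, Calr and Dnajc3, a co-chaperone of BiP, were called higher. The calnexin gene Canx, Hsp90b1, Creld2 and Ero1b, with log2 fold changes of 0.48, 0.26, 0.77 and 0.18 and adjusted p of 0.054 to 0.50, were not. In the whole list 15 of 32 genes were called higher (46.9%). Names outside the top of the list were chosen here by the match. In the stretches below, written along the strand of the gene, capitals mark the CCAAT and CCACG parts of the element, or their reverse complement in Calr.
Hspa5, chr2:34772000-34772068, plus strand: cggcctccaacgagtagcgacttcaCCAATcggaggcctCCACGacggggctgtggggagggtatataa
Pdia6, chr12:17266466-17266534, plus strand: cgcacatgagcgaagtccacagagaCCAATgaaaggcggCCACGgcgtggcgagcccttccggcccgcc
Dnajc3, chr14:118937802-118937870, plus strand: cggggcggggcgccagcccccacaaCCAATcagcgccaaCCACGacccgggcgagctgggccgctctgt
Calr, chr8:84847050-84847118, minus strand: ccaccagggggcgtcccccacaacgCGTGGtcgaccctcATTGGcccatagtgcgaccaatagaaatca
Canx, chr11:50325775-50325843, minus strand: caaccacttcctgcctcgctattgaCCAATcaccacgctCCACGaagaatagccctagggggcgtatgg
The element began 65 bases before the start in Hspa5, 98 in Pdia6, 105 in Dnajc3, 145 in Canx and 162 in Calr. These matches describe the windows and were not tested as binding sites. The element had been described in such genes before, so its share in the list says nothing about the difference between RF and LC. Dnajc3 was at 81.5, 83, 107 and 109 CPM at LC and 118, 125 and 152 CPM at RF (0.47, SE 0.15, adjusted p = 0.036), a call lost without LC replicate 1 (0.095), LC replicate 2 (0.079), RF replicate 2 (0.076) or RF replicate 3 (0.18) and with library totals (0.2). Canx, at 104, 129, 122 and 167 CPM against 173, 183 and 189 CPM, was called without LC replicate 4 (0.021) or AL replicate 2 (0.031), by DESeq2 (0.037), with sample quality weights in limma (0.022) and with the LC and RF libraries alone (0.044).

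Cytosolic heat shock chaperones had 14 of 29 genes higher and none lower (median 0.53), 8 without RF replicate 3 and 11 with library totals. Cct3, of the ring that folds actin and tubulin, was at 53, 56, 50.4 and 58.1 CPM at LC and 88, 87.5 and 95.1 CPM at RF (0.73, SE 0.11, adjusted p = 0.0012). The Hsp90 co-chaperones Fkbp4 (0.74, SE 0.14, adjusted p = 0.0033) and Stip1 (0.75, SE 0.15, adjusted p = 0.0042) and Hsp90aa1 (0.84, SE 0.17, adjusted p = 0.005) were higher as well. Of 32 proteasome genes 8 were higher and none lower (median 0.25), among them the deubiquitinase subunit Psmd14 at 18.7, 22.9, 20.5 and 24.7 CPM against 43.9, 55 and 47.5 CPM (1.17, SE 0.14, adjusted p = 0.00034). That count fell to 4 or 5 without AL replicate 3, LC replicate 3 or 4 or any RF replicate, to 3 with library totals, and to 3 with 2 lower when trends on transcript length and GC content were removed.

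Ribosomal protein genes lay on the other side. Of 55 cytosolic ribosomal protein genes none was higher and 17 were lower (30.9%, against 10.7% of all genes), with a median of −0.24. Rps28 was at 189, 166, 162 and 229.6 CPM at LC and 98.1, 99.1 and 111 CPM at RF (−0.86, SE 0.16, adjusted p = 0.0031). Rps20 (−0.66, SE 0.14, adjusted p = 0.0071) and Rps15 (−0.64, SE 0.15, adjusted p = 0.01) were lower too, Rps15 at 374 to 527 CPM against 262 to 285 CPM. The count lower was 11 without LC replicate 4, 9 without RF replicate 1, 6 without RF replicate 2, 10 without RF replicate 3, 37 with library totals and 27 with length and GC trends removed.

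Splicing and nuclear RNA-binding protein genes had 13 of 40 lower and 1 higher (median −0.28). Srsf4, a splicing activator, was at 166, 222, 149.9 and 157 CPM at LC and 82.5, 97.9 and 102 CPM at RF (−0.89, SE 0.16, adjusted p = 0.0031). The RNA-binding genes Rbm6 (−0.77, SE 0.14, adjusted p = 0.0032) and Luc7l (−0.71, SE 0.14, adjusted p = 0.005) and the cold-induced Rbm3 (−0.59, SE 0.12, adjusted p = 0.0041) were lower. The count lower was 5 without RF replicate 2 or 3 and 21 with library totals, and no gene was higher without LC replicate 4 or RF replicate 2 or 3.

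**Figure D4:**
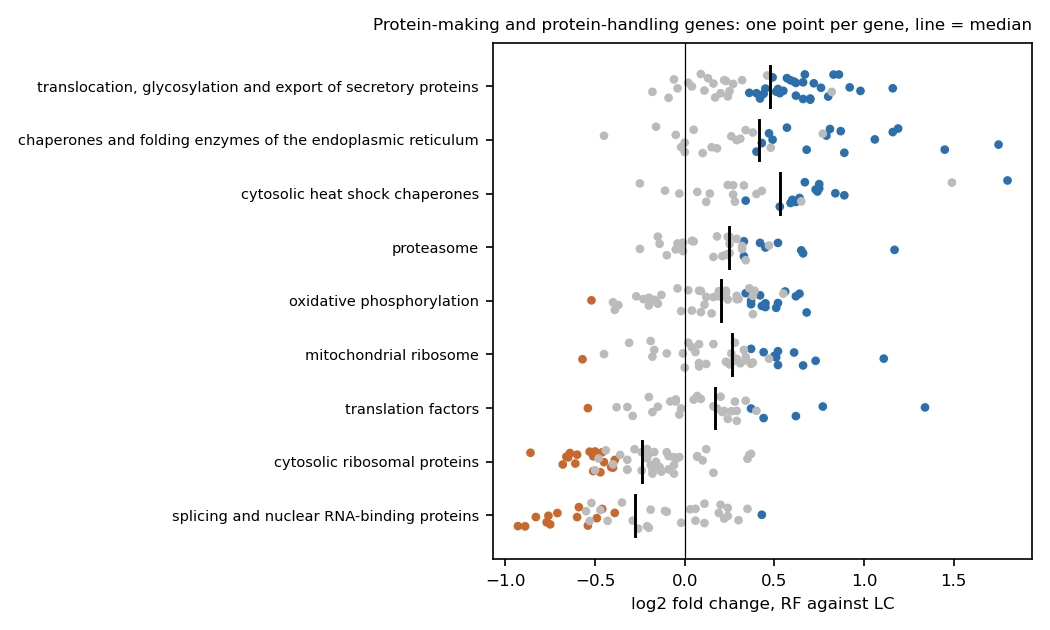
Log2 fold change of RF against LC (horizontal axis) for each gene of 9 lists of protein making and handling, blue where called higher, orange where called lower and grey where not called, with a line at the list median. Export genes centre on 0.48 and ribosomal protein genes on −0.24, with no gene of either list called in the opposite direction.

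The list of ATF4, the factor of the amino acid and stress response, and its targets had none of 21 genes higher and 4 lower (median −0.25). Those 4 include Atf4 itself. The share was 19.0%, against 22.1% of all genes called either way and 10.7% called lower, and library totals gave 7 lower. Trib3, a pseudokinase that dampens insulin signalling, was at 13.1, 12.7, 13.2 and 12.9 CPM at LC and 4.12, 3.86 and 3.75 CPM at RF (−1.73, SE 0.17, adjusted p = 9e-05). The 2 groups were nearly constant within themselves and more than 2-fold apart in the mean. Vldlr, a lipoprotein receptor (−1.44, SE 0.31, adjusted p = 0.0078), and Sesn2, an amino acid sensor that restrains mTORC1 (−1.20, SE 0.30, adjusted p = 0.013), also fell. Atf4 itself was lower (−0.55, adjusted p = 0.022), and its call was lost without LC replicate 1 (0.06), RF replicate 1 (0.087) or RF replicate 3 (0.081). Asns, the asparagine synthetase and a textbook ATF4 target, was near the limit of detection, at 0.485 to 2.13 CPM at LC and 1.94 to 2.35 CPM at RF (0.60, SE 0.63, adjusted p = 0.52).

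Plin4 had the largest fall among called genes averaging 5 CPM or more whose groups did not overlap, clone and model names left out. The falls next in size were in genes of several kinds. Cyp46a1, a cholesterol 24-hydroxylase best known from brain, was at 34.4, 47, 27.8 and 30.3 CPM at LC and 9.03, 5.99 and 5.69 CPM at RF (−2.34, SE 0.23, adjusted p = 9.8e-05). Cyp2j9, a cytochrome P450 gene, was at 223, 99.1, 145 and 146 CPM against 43.6, 37 and 30.9 CPM (−2.04, SE 0.40, adjusted p = 0.0086). Pcgf2, a Polycomb subunit gene, was at 27.6, 17.1, 25.4 and 19.5 CPM against 6.12, 8.19 and 6.22 CPM (−1.71, SE 0.22, adjusted p = 0.00056). Lgals4, a galectin gene, had one of the 5 smallest p-values, at 189, 184, 137 and 175 CPM against 59.9, 53.8 and 61.8 CPM (−1.55, SE 0.14, adjusted p = 7.2e-05). In Cyp46a1, Cyp2j9, Pcgf2 and Lgals4 the groups did not overlap. Adgrg2, Pkdrej and Dsg1c fell by 1.96, 1.91 and 1.82. Cyp2a22 (−2.26, adjusted p = 0.013) and Gadd45b (−2.15, adjusted p = 0.018), a growth arrest gene, lost their calls without RF replicate 1 (0.052 and 0.062) or RF replicate 2 (0.058 and 0.071), and Cyp2a22 has close copies.

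**Figure D5:**
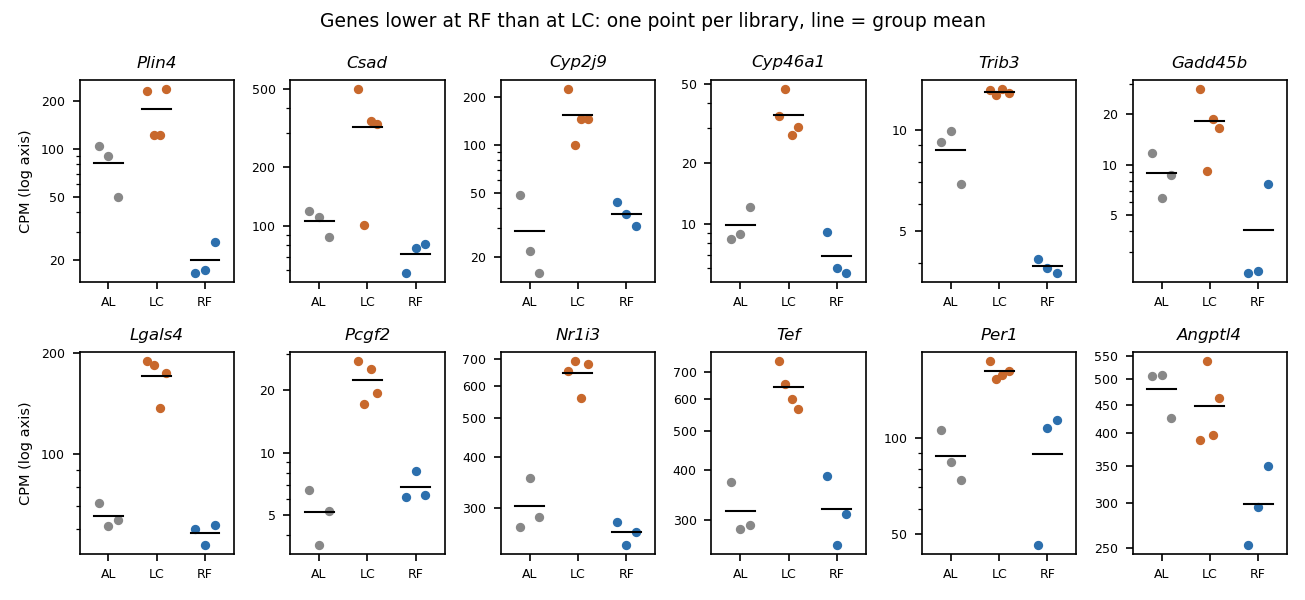
Level in CPM (vertical log axes) of 12 genes lower at RF, in each AL, LC and RF library, with a line at the group mean. Trib3 is tight in both groups, at 12.7 to 13.2 CPM at LC and 3.75 to 4.12 CPM at RF, while the RF libraries of Per1 spread from 46.1 to 114 CPM.

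Large rises outside lipid synthesis were as scattered. Slc25a30, a mitochondrial carrier gene, was at 1.51, 2.03, 3.28 and 1.44 CPM at LC and 22.7, 27 and 11.4 CPM at RF (3.28, SE 0.32, adjusted p = 0.00015), above the AL libraries at 3.93 to 5.59 CPM. Cyp17a1, a steroid hydroxylase gene, was at 1.69 to 5.4 CPM against 16.5 to 29.1 CPM (2.85, SE 0.36, adjusted p = 0.001). St3gal1, a sialyltransferase gene, was at 29.2, 28.2, 29.5 and 27.6 CPM against 69.3, 65.3 and 72.7 CPM (1.27, SE 0.10, adjusted p = 7.2e-05), and Mal2, which encodes a protein of membrane traffic in polarised cells, rose by 1.34 (SE 0.12, adjusted p = 7.2e-05). The spread within each group was small in both of these genes. Chrna4, a nicotinic receptor subunit gene, was at 2.76, 16, 1.35 and 0.879 CPM at LC and 117, 217 and 23.1 CPM at RF (4.51, SE 1.19, adjusted p = 0.033). This was the second-largest rise among called genes averaging 5 CPM or more whose groups did not overlap, clone and model names left out. Its call was lost without LC replicate 1 (0.085), 3 (0.063) or 4 (0.056) or RF replicate 1 (0.072) or 2 (0.11), with the LC and RF libraries alone (0.057) and with sample quality weights in limma (0.074). Ugt1a5 (3.37, adjusted p = 0.016), Fabp5 (2.69, adjusted p = 0.024) and Aqp8 (2.54, adjusted p = 0.026) lost theirs without RF replicate 1 (0.052, 0.057 and 0.069) or RF replicate 2 (0.058, 0.092 and 0.1). Fabp5 and Aqp8 also did without LC replicate 1 (0.067 and 0.075), and Aqp8 without LC replicate 3 (0.051). Reads of Ugt1a5 may be shared with other genes of its locus.

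Clock genes moved in a few members. Tef, a clock-driven transcription factor gene, was at 745, 653, 601 and 569 CPM at LC and 386, 261 and 312 CPM at RF (−1.01, SE 0.17, adjusted p = 0.0018). Per1, a repressor of the clock, was at 175, 154, 159 and 163 CPM against 46.1, 108 and 114 CPM (−0.87, SE 0.26, adjusted p = 0.032). Its call was lost without any one LC replicate (0.051 to 0.073), and without RF replicate 1 the difference was −0.56 (adjusted p = 0.038). Arntl, the gene of the activator BMAL1, was at 0.923 to 1.19 CPM at LC and 1.42 to 3.14 CPM at RF (1.17, SE 0.39, adjusted p = 0.048), a call lost without any one LC replicate (0.071 to 0.09), RF replicate 2 (0.11) or RF replicate 3 (0.21). Dbp, another output gene, did not pass (−0.34, SE 0.16, adjusted p = 0.15), and was called lower without RF replicate 1 (−0.56, adjusted p = 0.033) and with library totals (−0.55, adjusted p = 0.032). Of 17 core clock genes 1 was higher and 2 lower (17.6% called), and of 16 output genes 2 were higher and 4 lower (37.5% called), against 22.1% of all genes. Library totals gave none higher and 4 lower of the core genes and 1 higher and 5 lower of the output genes. The core count fell to 0 higher without any LC replicate or RF replicate 2 or 3, and to 0 or 1 lower without any LC replicate or RF replicate 2 or 3, and the output count was 2 lower without RF replicate 3. The hour of collection is not given, so these values cannot be placed in the daily cycle.

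The canonical E-box, the site bound by the clock's activator pair, is shown for the 2 genes of these lists that were called lower and hold it. It was searched as CACGTG, which reads the same on both strands, and was present in 4 of 19 core clock windows (21.1%), in 2 of 19 output windows (10.5%), both of Tef, and in 2349 of 32851 windows of all genes (7.15%). The cholesterol list held it as often as the core clock list, in 4 of 19 windows (21.1%), and its share was 14.3% in the ATF4 list and 12.9% in the chaperone list. Capitals mark it in the stretches below (RefSeq, GRCm38.p6, plus strand for each).
Tef, chr15:81802521-81802576: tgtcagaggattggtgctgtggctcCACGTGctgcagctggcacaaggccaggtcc
Tef, second annotated start, chr15:81811251-81811306: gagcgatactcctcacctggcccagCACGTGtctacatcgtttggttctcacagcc
Per1, chr11:69098758-69098813: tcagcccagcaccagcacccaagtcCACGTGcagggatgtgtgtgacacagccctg
The hexamer began 127 and 138 bases before the starts of Tef and 166 bases before that of Per1. The core clock genes Bhlhe41, Ciart and Cry1 held it too and were not called. A match is a string of letters in the window, and its occupancy was not measured here. Among the other motifs searched, the sterol element, in a single exact spelling, was in none of 19 windows of the cholesterol list. Those windows cover 16 of its 24 genes. The spelling is rare, in 30 of 32851 windows of all genes (0.0913%), so its absence does not show that these promoters lack sterol elements. The D-box was in none of 19 windows of the clock output list, against 1.06% of all windows. Those 19 windows cover 13 of its 16 genes. The amino acid response element TGATGNAAT was in 2 of 21 windows of the ATF4 list (9.52%, against 0.965% of all), those of Fgf21 and Nupr1, neither of which was called.

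Nuclear receptor genes had none of 31 higher and 4 lower (median −0.17), a share of 12.9% that is close to the 10.7% of all genes called lower. Nr1i3, the gene of the drug sensor CAR, was at 653, 691, 561 and 679.8 CPM at LC and 277, 243 and 262 CPM at RF (−1.31, SE 0.14, adjusted p = 0.00015). Nr1h4, the gene of the bile acid receptor FXR, was at 392, 438, 357 and 371 CPM against 225, 207 and 257 CPM (−0.76, SE 0.13, adjusted p = 0.002). The groups did not overlap in either gene. Only 2 of the list were lower without LC replicate 1 or 4 or RF replicate 2 or 3, and 1 was higher without RF replicate 2. Bile acid genes had 4 of 20 higher and 2 lower (30.0% called, against 22.1% of all genes). With library totals 2 were higher and 5 lower, so no direction is given for that list. Cyp2c70, which makes the muricholic acids of mice, was at 47.7, 70.4, 43.2 and 47.7 CPM at LC and 366, 194 and 296 CPM at RF (2.45, SE 0.23, adjusted p = 0.00012). Slc10a1, the bile acid uptake carrier, rose by 1.07 (SE 0.26, adjusted p = 0.014), and Abcg5, a subunit of the sterol exporter, fell by 0.98 (SE 0.22, adjusted p = 0.0086). Cyp7a1, the rate-limiting enzyme of bile acid synthesis, was at 76.3 to 124 CPM against 92.9 to 242 CPM (0.76, SE 0.37, adjusted p = 0.18), and 0.32 without RF replicate 2. The bile acid count higher was 2 without LC replicate 3 or 4 or RF replicate 1 or 3.

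Detoxifying enzymes split between families. Conjugating enzymes and glutathione genes had 17 of 45 higher and 2 lower (median 0.46), 11 higher without RF replicate 1 or 3, and 13 higher with 4 lower with library totals. Gstm6 was at 35.4, 34.1, 30.1 and 28.9 CPM at LC and 91.9, 81.4 and 96.1 CPM at RF (1.48, SE 0.14, adjusted p = 9e-05), and its relatives Gstm3 (1.55, SE 0.19, adjusted p = 0.00043) and Gstm7 (1.30, SE 0.19, adjusted p = 0.00097) rose as well. Ugt2b1, a glucuronosyltransferase gene, rose by 1.34 (SE 0.14, adjusted p = 0.00012). All 4 have close copies, and shared reads were not resolved here. Cytochrome P450 genes of families 1 to 3 had 6 of 33 higher and 4 lower (30.3% called, against 22.1% of all genes, median −0.13). Without RF replicate 2, 1 was lower, and library totals gave 5 higher and 7 lower. Cyp1a2 was at 305, 342, 282 and 312 CPM against 702, 565 and 689.8 CPM (1.07, SE 0.15, adjusted p = 0.00095), and Cyp2j5 rose by 1.06 (SE 0.17, adjusted p = 0.0018) while Cyp2j9 fell.

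Other lists held changes in both directions. Of 32 peroxisome genes 4 were higher and 2 lower (18.8% called, below the 22.1% of all genes), and 3 higher and 4 lower with library totals. The list was led by Nudt7, a hydrolase of coenzyme A, at 183, 378, 219.7 and 255 CPM at LC and 897, 796 and 746 CPM at RF (1.65, SE 0.20, adjusted p = 0.00035). Without RF replicate 3, 2 were higher, and without RF replicate 1 or 2, 1 was lower. Of 45 autophagy and lysosome genes 12 were higher and 8 lower, among them Atg3, of autophagosome formation, higher by 0.65 (SE 0.13, adjusted p = 0.0039), and the lysosomal carboxypeptidase Ctsa, at 235, 216, 189 and 199 CPM against 124, 102 and 132 CPM (−0.82, SE 0.13, adjusted p = 0.0015). Their count higher was 7 without LC replicate 1 or RF replicate 1 and 5 without RF replicate 2 or 3, their count lower was 5 without RF replicate 1 or 2, and with library totals 3 were higher and 11 lower. Growth hormone axis and male-biased genes had 8 of 35 higher and 2 lower (28.6% called, against 22.1% of all genes, median 0.57). The pheromone carrier Mup20, which has close copies, was at 2889.8 to 4012 CPM against 6188 to 8624 CPM (1.13, SE 0.18, adjusted p = 0.0015). The count lower of this list was 0 without RF replicate 1 or 2 and 1 without LC replicate 3.

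Genes of plasma proteins made by the liver were higher in part. The share called was 39.3% in the acute phase list, against 22.1% of all genes. In the coagulation and complement list it was 25.6%, close to that of all genes. Of 28 acute phase genes 9 were higher and 2 lower (median 0.22), and 8 higher and 4 lower with library totals. Fga, of the fibrinogen alpha chain, was at 322, 425, 396 and 452 CPM at LC and 934, 854 and 1092 CPM at RF (1.27, SE 0.18, adjusted p = 0.00096), and Fgg, of the gamma chain, rose by 0.87 (SE 0.14, adjusted p = 0.0017). Steap4, a metalloreductase induced by inflammation, was at 22.2, 23.5, 23.3 and 21.3 CPM against 59.2, 71.4 and 90.2 CPM (1.70, SE 0.17, adjusted p = 9e-05). Coagulation and complement genes had 9 of 43 higher and 2 lower (median 0.09), with C9 of the membrane attack complex at 79.6, 84, 88.3 and 69.5 CPM against 198, 180.2 and 198 CPM (1.26, SE 0.14, adjusted p = 0.00022) and the clotting factor F9 higher by 0.75 (SE 0.13, adjusted p = 0.002). With library totals 5 of that list were higher and 7 lower, and without RF replicate 3, 5 were higher. The acute phase count lower was 0 without RF replicate 2 and 1 without RF replicate 3, and the coagulation count lower was 1 without AL replicate 3, LC replicate 1, 2 or 4 or any RF replicate. Igf1, the growth factor made under growth hormone, did not differ detectably (0.03, SE 0.14, adjusted p = 0.91), nor did the binding protein gene Igfbp1 (−0.05, SE 0.47, adjusted p = 0.95), which was lowest in the same pair of libraries (288 and 191 CPM) and lay at 615 to 800.3 CPM in the 5 left.

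Genes of dividing cells, interferon response and matrix were higher in some members and lower in none. In that order 25.8%, 32.1% and 32.1% were called, against 22.1% of all genes called either way and 11.4% called higher. The cell cycle share is close to the 22.1%. Of 31 DNA replication and cell cycle genes 8 were higher (median 0.38; 4 without RF replicate 2), among them the helicase subunit Mcm3, at 1.66 to 2.64 CPM against 4.12 to 6.06 CPM (1.24, SE 0.25, adjusted p = 0.0043), and the proliferation marker Mki67, at 0.492 to 1.72 CPM against 2.54 to 4.33 CPM (1.59, SE 0.38, adjusted p = 0.01). Of 28 interferon-stimulated genes 9 were higher (median 0.36), such as the GTPase genes Ifi47, at 7.28, 6.89, 6.52 and 7.03 CPM against 12.4, 12.1 and 15.3 CPM (0.94, SE 0.16, adjusted p = 0.0019), and Irgm1 (0.78, SE 0.13, adjusted p = 0.0021). Collagen and matrix genes had 9 of 28 higher (median 0.52; 5 without LC replicate 4 and 4 without RF replicate 2). Sparc, a collagen-binding protein, was at 21.9, 29.9, 29.7 and 20.1 CPM against 44.2, 55.5 and 45.8 CPM (0.93, SE 0.16, adjusted p = 0.002). With library totals 1 cell cycle, 2 interferon and 2 matrix genes were called lower, beside 7, 6 and 4 higher.

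Among markers of liver cell types, those of stellate cells and fibroblasts had the largest share called. Of these 14 markers 7 were higher and none lower (50.0% called, against 22.1% of all genes tested), and 3 were higher without RF replicate 2. They summed to 277 to 364 CPM at LC and 412 to 470.3 CPM at RF. Col1a1, Col3a1 and Dcn of this list are in the matrix list as well. Rgs5, a marker of pericytes, was at 13.8, 9.29, 16.1 and 12.5 CPM against 21.7, 28.8 and 28.4 CPM (1.02, SE 0.21, adjusted p = 0.0056). Of 15 Kupffer cell and macrophage markers 2 were higher and none lower, and this share of 13.3% is below that of all genes. Their summed levels were 141 to 252 CPM at LC and 192 to 273 CPM at RF (0 and 1 higher without RF replicate 2 and 3, 4 without LC replicate 3). Of 16 sinusoidal endothelial markers 3 were higher and 3 lower, at 489 to 515 and 434 to 520.1 CPM. Their count higher was 1 without LC replicate 2, 0 without RF replicate 2 or 3 and 5 without AL replicate 2, and their count lower was 1 without RF replicate 1. Of 9 cholangiocyte markers 1 was higher and 1 lower, and neither was called without RF replicate 2. Of 15 hepatocyte markers 6 were higher and none lower (2 without RF replicate 3). In whole tissue, fewer cells of a type and less RNA per cell cannot be told apart, and the part of these markers in the matrix and interferon differences was not tested. Of T and NK cell, B cell, neutrophil, mesothelial, muscle and acinar markers 1 of 24 tested was called, and the blood contribution, by 5 erythroid genes, summed to 274 to 407 CPM at LC and 325 to 1029 CPM at RF.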

How the data were processed

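RNA was extracted, enriched for poly(A) and sequenced without strand information on a DNBSEQ platform, per the labels' protocols. The lowest RNA integrity number given is 6.6 and the highest 8.5. HISAT, Bowtie2 and the build GRCm39 are named in the submitters' processing notes, and no source used here gives the counting program or annotation. The deposited table holds expected counts and FPKM for 17359 genes. Expected counts (10.9% of values not whole) were rounded. edgeR 4.0.16 (R 4.3.3) was run on all 10 libraries with 1 mean per group, its default filter on low counts (12789 genes tested), TMM scaling and robust quasi-likelihood F tests with Benjamini-Hochberg adjustment, and the contrast was RF minus LC. Antisense and overlapping genes cannot be told apart without strand.

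Levels are CPM. The authors' FPKM values, on a log2 scale with a pseudocount of 1 or 0.1, served only in alternatives with limma 3.58.1, and DESeq2 1.42.0 was another. Named genes were the 12 largest changes each way, the 5 smallest p-values, a fixed core set and the leading genes of each list. The largest changes were taken among calls averaging 5 CPM or more whose RF and LC values did not overlap, clone and model names left out. The smallest p-values were taken among calls averaging 5 CPM or more. Members and lists were chosen with earlier results of these data known. The procedure was tested on simulated data. The labels do not say what a replicate number stands for, and deviations of same-numbered samples correlated at 0.23, 0.17 and 0.05, so pairing is unresolved and the fit has no block. Some results of the naming rule are not reported here.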

Additional observations from a re-analysis of the deposited data

Results flagged for a closer look

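Among 145 genes named in the text, 9 had 1 of the 4 LC libraries set far from the other 3 relative to the range of the group, where chance alone sets apart about 5% of groups. LC replicate 2 was the highest for Chrna4 (16 CPM, others 0.879 to 2.76), Cyp2c70 (70.4, others 43.2 to 47.7), Cyp2a22 (56.9, others 16.5 to 18.3), Abcg5 (537, others 311 to 338) and Gstm7 (27.7, others 15.4 to 16.8). It was the lowest for Mlx (23.1 CPM, others 27.1 to 27.5). LC replicate 1 was the lowest for Mdh2 (122 CPM, others 132 to 134) and for Pdk4 (78.4, others 422 to 450.4). LC replicate 4 was the highest for Rps15 (527 CPM, others 374 to 399). Groups of 3 libraries were not examined in this way.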

How the results depend on the processing

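The counts of 1452 genes higher and 1369 lower moved by more than 1.5 times under 3 alternatives that kept every library. They also did without RF replicate 2 (792 and 643) or RF replicate 3 (874 and 768). Among the 3 alternatives, those on FPKM also change the measure and the test. The counts were 673 and 2724 with library totals and no further scaling, 707 and 2782 on log2(FPKM + 1), and 696 and 2681 on log2(FPKM + 0.1). These 3 moved the median of all genes from −0.02 to −0.22, −0.14 and −0.2. The cause was not tested. Leaving out 1 library in turn gave 792 to 1604 genes higher and 643 to 1537 lower. No named gene reversed its direction while called. With the replicate number as a block, 1613 genes were higher and 1617 lower, 2615 of the 2821 called without it among them, and Csad (adjusted p = 0.051), Ugt1a5 (0.058), Gadd45b (0.058), Aqp8 (0.08) and Arntl (0.064) lost their calls while Canx (0.018) and Cry1 (0.04) were called. RF replicate 3 correlated better with LC replicate 4 (0.094) than with its own number (0.05). With 3 and 4 libraries and a median standard error of 0.18, differences of small size could not be detected.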

Other observations

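After the data had been seen, the 9529 genes averaging 5 CPM or more were searched for single libraries at least 1.5-fold apart from all others of their group. In LC replicate 1 and RF replicate 1, 29 genes were low in both (of 76 and 206 low in each), among them the insulin-suppressed genes Igfbp1 and Pdk4 and the immediate early genes Klf6, Btg2 and Fosb. In LC replicate 2 and RF replicate 2, 29 genes were high in both (of 241 and 157), among them the cholesterol synthesis genes Dhcr7 and Pmvk and the lipogenic genes Gpam and Elovl6. LC replicate 3 and RF replicate 3 shared 7 low genes, among them Mvd, Msmo1, Idi1 and Sqle. On their other side these pairs shared 12 high genes in replicate 1, 5 low genes in replicate 2 and 1 high gene in replicate 3. Pairs of libraries with different numbers shared 2 to 8 low genes and 1 to 10 high genes, the most in LC replicate 4 and RF replicate 3 (8 low and 10 high). These are descriptions without a test, and the labels do not say what a replicate number stands for.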
